A study of Mus musculus with 12 samples.

Results

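The 10 genes Becn1, Atg5, Atg7, Map1lc3b, Gabarapl1, Sqstm1, Ulk1, Pink1, Bnip3 and Bnip3l, which encode proteins of autophagy and of the removal of mitochondria by autophagy (mitophagy), were taken by name from a table of 13552 genes measured in mouse hearts. All 10 were in the table, and all 10 were among the 11240 genes tested. Hearts came from young adult male mice of the strain C57BL/6 (C57BL/6J in the study's methods) 9 h after transverse aortic constriction (TAC), a surgical narrowing of the aorta that loads the left ventricle with pressure, or after a sham operation. There were 4 groups of 3 mice each, sham and TAC hearts of WT mice and of KI mice. KI mice carried the Bcl-xL S14A knock-in in both copies, in which the serine at codon 14 of the Bcl-xL gene Bcl2l1 is replaced by alanine in every cell of the body. WT mice were purchased whereas KI mice were bred by the authors, so a difference between the colonies and a difference between the genotypes cannot be told apart.

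In autophagy, a double membrane closes around cell material and carries it to the lysosome for degradation. The ULK1 kinase starts the process, Beclin 1 in a lipid kinase complex prepares the membrane, and ATG5 and ATG7 help to attach the small ATG8 proteins, LC3 and GABARAP, to it. Cargo receptors such as p62 (Sqstm1) bind both cargo and ATG8 proteins, and damaged mitochondria are marked by PINK1 or by the outer membrane receptors BNIP3 and NIX (Bnip3l). Bcl-xL can bind Beclin 1, BNIP3 and NIX, and heart muscle, which is rich in mitochondria, depends on these routes under load. The comparisons asked how transcripts of these genes stood after acute pressure overload in hearts with and without a Bcl-xL that can be phosphorylated at this serine.

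The table states no unit, and its values were read as RPKM from their sums over genes, which divide reads by exon length and by the depth of the library, so that levels can be compared between genes. Libraries held 23650193 to 32455180 reads on genes, and the fewest reads behind any value of the 10 genes were 170, for Atg5 in KI TAC mouse 5. Cardiomyocyte markers fitted the labelled tissue, with 7 of 8 genes in the table and summed levels of 12783 to 22936 RPKM. Some libraries stood apart from others of their group. WT TAC mouse 10 had the highest summed level of 6 fibroblast markers, 610 RPKM against 92.2 to 271 RPKM in the other mice. KI TAC mouse 5 was the lowest mouse of its group for 8 of the 10 genes and had the lowest median-ratio size factor of all mice, 0.829. KI sham mouse 1 was the lowest of its group for 7 genes, and WT TAC mouse 9 and WT sham mouse 1 were each the highest of their group for 6. In whole hearts, fewer cells of a type and less RNA per cell cannot be told apart.

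Ulk1 fell and Gabarapl1 rose in KI hearts after TAC, and these were the only 2 of the 10 genes past the threshold, a Benjamini-Hochberg adjusted p of 0.05 from limma over all genes tested, in that comparison. Ulk1 encodes the kinase that starts autophagy, and Gabarapl1 an ATG8 protein of the forming membrane. Their promoters (GRCm38.p6, RefSeq, 250 bases before to 50 after the start) are shown because these genes changed in opposite directions, with the GC box letters CCGCCC on either strand in capitals.
Ulk1, chr5:110810032-110810331, minus strand: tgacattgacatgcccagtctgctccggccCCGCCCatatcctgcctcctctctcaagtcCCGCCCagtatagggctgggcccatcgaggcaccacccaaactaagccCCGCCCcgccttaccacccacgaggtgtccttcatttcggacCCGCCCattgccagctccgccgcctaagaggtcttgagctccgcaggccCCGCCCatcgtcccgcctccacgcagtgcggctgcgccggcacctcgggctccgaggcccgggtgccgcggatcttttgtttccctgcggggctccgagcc
Gabarapl1, chr6:129532942-129533241, plus strand: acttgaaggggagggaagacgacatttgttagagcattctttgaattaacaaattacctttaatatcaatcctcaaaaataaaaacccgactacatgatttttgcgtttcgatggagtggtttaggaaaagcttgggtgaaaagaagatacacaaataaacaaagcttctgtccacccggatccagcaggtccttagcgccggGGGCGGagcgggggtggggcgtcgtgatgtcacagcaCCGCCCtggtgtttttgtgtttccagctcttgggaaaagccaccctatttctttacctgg
The Ulk1 window held 68.0% G or C and 5 GC boxes, and the Gabarapl1 window 46.3% and 2, beside a median of 52.7% over 32851 promoters. GC boxes were in 7 of the 8 members that had a RefSeq entry and in 35.7% of all promoters. The FoxO letters GTAAACA were in 0 of the 8 and in 3.65% of all promoters, and the AP-1 letters TGANTCA in 0 of the 8 and in 7.81%. Other forms of the FoxO letters were not searched, and the Gabarapl1 window above holds ATAAACA. The E-box CACGTG lay 14 bases before the RefSeq start of Atg5, 132 before that of Atg7 and 108 before that of Bnip3, and in 7.15% of all promoters. The Atg7 window (chr6:114670846-114671145, plus strand) lies inside the gene as GENCODE places it, and 0 of its 17 annotated transcripts hold the 25 bases after that start. For Atg5, whose GENCODE start lies inside its window (chr10:44268089-44268388, plus strand), 0 of 2 transcripts do. The shorter hypoxia core ACGTG, which every E-box holds, was in the same 3 members and in 19.6% of promoters. The cAMP response element TGACGTCA was in Atg5 and in 1.79% of promoters, and the antioxidant response letters TGACNNNGC in Map1lc3b and in 12.4%. All searches covered both strands, and a match describes letters only.

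In sham hearts of WT mice, mean levels of the 10 genes ran from 402 RPKM for Pink1 to 3.29 RPKM for Atg5. Between them stood Sqstm1 at 164 RPKM, Ulk1 at 63.2, Gabarapl1 at 42.3, Bnip3 at 26.1, Map1lc3b at 18.4, Bnip3l at 6.76, Becn1 at 5.27 and Atg7 at 3.54 RPKM. The ranges of neighbours in this order did not overlap, apart from those of Atg7 and Atg5. KI sham hearts kept this order of means, and there the ranges of Bnip3 and Map1lc3b and those of Atg7 and Atg5 overlapped. In KI TAC hearts Gabarapl1, at 79.7 RPKM, stood above Ulk1, at 31.9 RPKM, with no overlap. Length was counted over all annotated exons, which for Map1lc3b (7517 bases) and Becn1 (7065 bases) is long beside the 2013 bases of Gabarapl1, so a gene with long optional exons can be listed low.

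**Figure D1:**
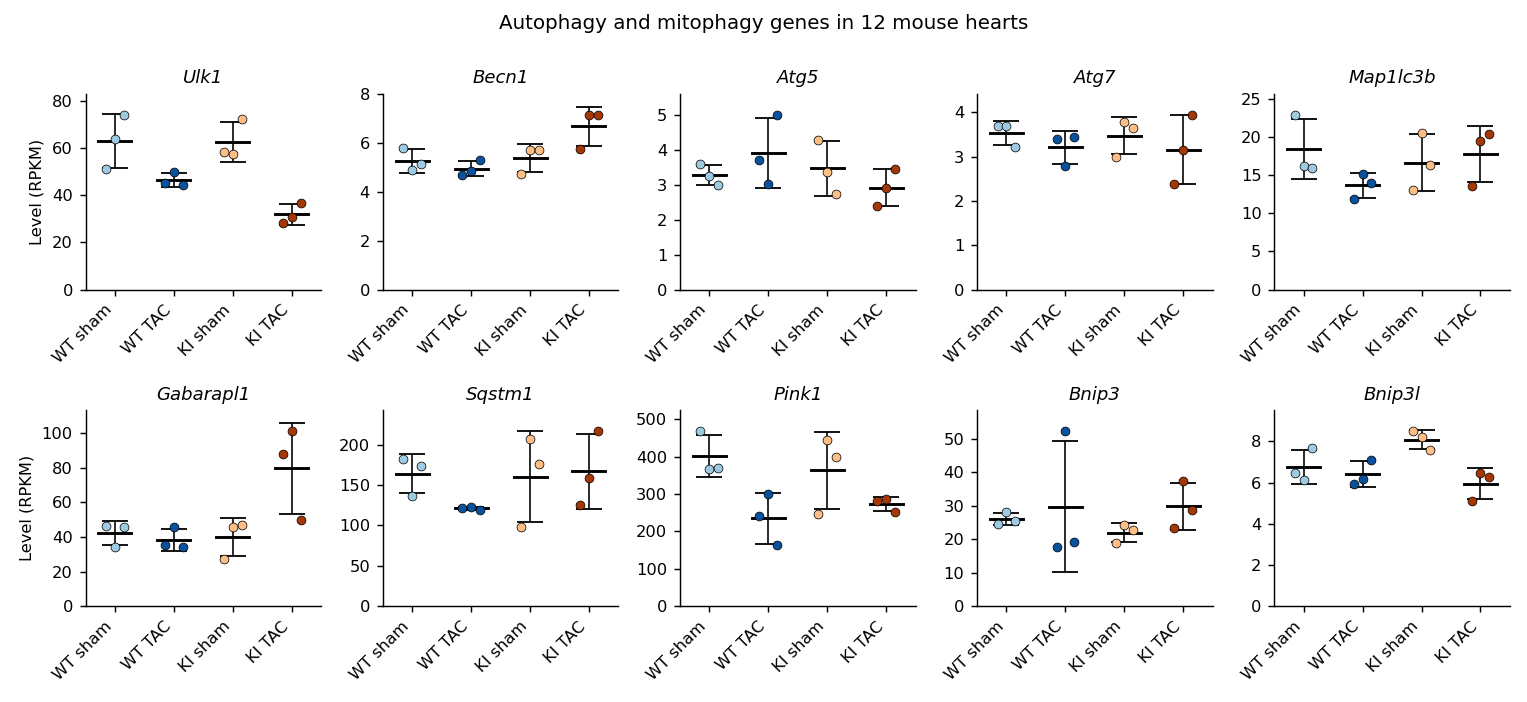
Level in RPKM on linear axes starting at 0 for each of the 10 genes, with 1 point per mouse in order of mouse number, a line at the group mean and bars of 1 SD (n = 3 mice per group). Ulk1 was lowest in the 3 KI TAC hearts (28.2 to 37.0 RPKM) and Gabarapl1 highest in them (50.1 to 101 RPKM), while WT TAC mouse 9 stood alone for Bnip3 at 52.1 RPKM.

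Ulk1 (chr5:110784488-110810097, minus strand, GRCm38) measured 51.1, 64.1 and 74.3 RPKM in WT sham mice 1, 2 and 3, 45.4, 50.04 and 44.4 in WT TAC mice 7, 9 and 10, 58.5, 57.4 and 72.6 in KI sham mice 1, 2 and 3, and 28.2, 30.7 and 37.0 in KI TAC mice 5, 6 and 7. All 3 KI TAC hearts were below all 9 other hearts, and WT TAC hearts were below WT sham hearts without overlap. The mean was 31.9 ± 4.52 RPKM in KI TAC hearts against 62.8 ± 8.48 in KI sham hearts (SD, n = 3), a ratio of 0.508. The limma log2 fold change was -0.96 with an SE of 0.19 (adjusted p = 0.00317), and it passed the threshold under each of the 19 alternatives that gave a value (adjusted p up to 0.0236). In WT hearts the mean went from 63.2 ± 11.6 to 46.6 ± 2.99 RPKM after TAC (SD, n = 3), with a limma log2 fold change of -0.42 and an adjusted p of 0.170. Between the TAC groups the log2 fold change of KI against WT was -0.54 (limma adjusted p = 0.0792), which reached -0.65 with an adjusted p of 0.0478 without KI TAC mouse 7.

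The genotype by surgery interaction, the difference between the changes after TAC in KI and in WT hearts, was -0.54 for Ulk1 on the log2 scale (limma adjusted p = 0.363), so the fall in KI hearts was not shown to differ from the WT value. No sequence window of 75 bases, the read length, was shared between Ulk1 and another gene. The 3 genes whose centred log2 levels lay closest to those of Ulk1 over the 12 mice were Ppp1r26, Oplah and Atg2a, with root mean square differences of 0.101, 0.108 and 0.112.

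Becn1 (chr11:101285952-101302286, minus strand), which encodes the Beclin 1 subunit that Bcl-2 proteins can bind, measured 5.80, 4.87 and 5.13 RPKM in WT sham, 4.69, 4.84 and 5.29 in WT TAC, 4.73, 5.69 and 5.71 in KI sham, and 5.76, 7.15 and 7.12 in KI TAC hearts, in the order of mouse number. The 3 KI TAC hearts stood above both KI sham and WT TAC hearts without overlap. The log2 fold changes, 0.27 against KI sham (adjusted p = 0.206) and 0.37 against WT TAC (adjusted p = 0.115), did not pass the limma threshold. They did pass after median-ratio scaling, at 0.38 (limma adjusted p = 0.0334) and 0.50 (0.0243), and the latter also after quantile normalization, at 0.49 (0.0306). Of the 75-base windows of Becn1, 33.6% also lie in Cntd1 on the opposite strand, and the strand setting of the counting is not given in the sources used here.

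Atg5 (chr10:44268358-44364291, plus strand) and Atg7 (chr6:114643097-114860614, plus strand) encode parts of the machinery that attaches ATG8 proteins to the membrane. Atg5 ranged from 2.39 to 5.01 RPKM and Atg7 from 2.38 to 3.95 RPKM over the 12 hearts, and in both genes every pair of groups compared overlapped. Among the 4 comparisons of 2 groups, the largest fitted difference of Atg5 was -0.32 on the log2 scale, for KI TAC against WT TAC (limma adjusted p = 0.259), with a 95% interval of -0.71 to 0.077. Its interaction was -0.36 (limma adjusted p = 0.510). For Atg7 the 95% intervals of all 4 comparisons lay between -0.46 and 0.32.

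Map1lc3b (chr8:121590361-121598760, plus strand) encodes LC3B, the ATG8 protein most used to follow autophagosomes. Its levels were 22.9, 16.2 and 16.0 RPKM in WT sham, 11.8, 15.1 and 13.96 in WT TAC, 13.1, 20.6 and 16.3 in KI sham, and 13.6, 19.5 and 20.3 in KI TAC hearts. WT TAC hearts lay below WT sham hearts without overlap (log2 fold change -0.39, limma adjusted p = 0.256), and the KI groups overlapped.

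Gabarapl1 (chr6:129533160-129542346, plus strand) measured 46.4, 34.4 and 46.0 RPKM in WT sham, 35.4, 45.8 and 34.2 in WT TAC, 27.4, 46.1 and 47.0 in KI sham, and 87.9, 101 and 50.1 in KI TAC mice 5, 6 and 7. All 3 KI TAC hearts were above the 9 others, although mouse 7 stood just over the highest of them. The mean was 79.7 ± 26.5 RPKM in KI TAC hearts against 40.1 ± 11.05 in KI sham and 38.5 ± 6.41 in WT TAC hearts (SD, n = 3). Against KI sham this was a ratio of 1.99 and a log2 fold change of 0.95 with an SE of 0.28 (limma adjusted p = 0.0243). Against WT TAC it was a ratio of 2.07 and a log2 fold change of 0.98 (limma adjusted p = 0.0381). In WT hearts the log2 fold change after TAC was -0.13 (95% interval -0.73 to 0.46, limma adjusted p = 0.792).

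The fold changes of Gabarapl1 kept their sign without any 1 mouse, at 0.70 to 1.25 against KI sham and 0.78 to 1.28 against WT TAC, while both calls could be lost. Against KI sham, the call was lost without KI sham mouse 1 (0.70, limma adjusted p = 0.0952), KI TAC mouse 5 (0.85, 0.0803) or KI TAC mouse 6 (0.75, 0.0976). Against WT TAC, it was lost without WT TAC mouse 7 (0.93, limma adjusted p = 0.140), WT TAC mouse 10 (0.91, 0.0954), KI TAC mouse 5 (0.88, 0.0984) or KI TAC mouse 6 (0.78, 0.159), just lost without WT sham mouse 3 (0.0520) or KI sham mouse 3 (0.0511), which are in neither of these groups, and in a fit of those 2 groups alone (0.0847). The interaction was 1.08 on the log2 scale (limma adjusted p = 0.241), so a difference between the genotypes in the change after TAC did not pass the threshold. Of its 75-base windows, 20.5% also lie in 1700101I11Rik on the opposite strand, which was listed at 0.167 to 0.689 RPKM. Its closest profiles over the 12 mice were those of Lrrc8a, Ifi205 and Ercc1, with root mean square differences of 0.212, 0.229 and 0.246 on the log2 scale.

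Sqstm1 (chr11:50199366-50210827, minus strand), the gene of the cargo receptor p62, measured 182, 137 and 173 RPKM in WT sham, 122, 123 and 119 in WT TAC, 98.3, 207 and 176 in KI sham, and 126, 159 and 216 in KI TAC hearts. WT TAC hearts were the most alike of any group (SD 2.27 RPKM) and lay below the WT sham and the KI TAC hearts without overlap. Neither difference passed the limma threshold (log2 fold change -0.42 after TAC in WT hearts, adjusted p = 0.330, and 0.42 for KI TAC against WT TAC, adjusted p = 0.308). KI sham mice spread from 98.3 to 207 RPKM, over the whole range of the WT groups, and the value after TAC in KI hearts was 0.088 on the log2 scale (95% interval -0.49 to 0.67) and -0.0041 after quantile normalization.

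Pink1 (chr4:138313409-138326307, minus strand), the kinase that builds up on depolarized mitochondria, measured 468, 368 and 371 RPKM in WT sham, 242, 301 and 163 in WT TAC, 248, 444 and 399 in KI sham, and 281, 286 and 251 in KI TAC hearts. Every WT TAC heart was below every WT sham heart, and in KI hearts the groups overlapped through KI sham mouse 1. The WT mean was 235 ± 69.0 RPKM after TAC against 402 ± 56.8 after sham (SD, n = 3), a ratio of 0.585. The log2 fold change of -0.81 with an SE of 0.26 had a limma p of 0.00808 and an adjusted p of 0.0610, just outside the threshold. It came inside with quantile normalization (-0.67, adjusted p = 0.0394), without a trend in limma's prior (0.0481), without WT TAC mouse 9 (-1.01, 0.0412) and without KI sham mouse 1 (0.0348). In KI hearts the log2 fold change was -0.37 (limma adjusted p = 0.322), and the interaction of 0.43 had an adjusted p of 0.583. KI TAC against WT TAC was 0.25 (limma adjusted p = 0.533), which turned to -0.018 after quantile normalization.

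Bnip3 (chr7:138890836-138909519, minus strand), a mitophagy receptor and a known target of HIF-1, measured 24.6, 28.2 and 25.5 RPKM in WT sham, 17.5, 52.1 and 19.3 in WT TAC, 18.8, 24.2 and 22.7 in KI sham, and 23.3, 37.4 and 28.8 in KI TAC hearts. WT TAC mouse 9 had the highest level of all 12 hearts and the other 2 WT TAC mice levels below every WT sham heart. The fitted log2 fold change after TAC in WT hearts was 0.0049 with all mice, -0.023 after quantile normalization and -0.48 without mouse 9 (limma adjusted p = 0.195). In KI hearts it was 0.41 (limma adjusted p = 0.378), and the groups overlapped. KI sham hearts lay below WT sham hearts without overlap (-0.25, 95% interval -0.93 to 0.44). Of its 75-base windows, 34.4% also lie in other annotated genes, among them pseudogenes, so reads there may be split.

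Bnip3l (chr14:66985239-67008877, minus strand), the gene of the mitophagy receptor NIX, measured 6.45, 6.12 and 7.70 RPKM in WT sham, 5.95, 6.17 and 7.11 in WT TAC, 8.48, 8.22 and 7.56 in KI sham, and 5.10, 6.46 and 6.29 in KI TAC hearts. KI TAC hearts were below KI sham hearts without overlap, a log2 fold change of -0.39 with a limma p of 0.0222 and an adjusted p of 0.0779. In WT hearts it was -0.064 (95% interval -0.39 to 0.26). The pseudogene Bnip3l-ps holds 16.9% of its 75-base windows.

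Calls over the 10 genes were read beside those over all genes tested. After TAC in WT hearts 0 of 10 passed the limma threshold, beside 11.6% of all genes tested, and 2 of 10, Pink1 and Ulk1, had an unadjusted p below 0.05, beside 27.9%. By limma-voom on reads recovered from the table the count was also 0. Map1lc3b, Sqstm1, Ulk1 and Pink1 were lower in all 3 WT TAC hearts than in all 3 WT sham hearts, 4 of 10, beside 15% of all genes without overlap in that direction and 35.1% in either. Of the 10 fitted changes 8 were negative (that of Bnip3 also turned negative after quantile or median-ratio scaling), with a median of -0.12 on the log2 scale against 0.035 over all genes. The 7 cardiomyocyte markers had a median of -0.50 in the same comparison, with Actc1 alone positive at 0.42, and their part in the lower levels was not tested.

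After TAC in KI hearts 2 of 10 passed, beside 23.3% of all genes tested, 1 higher (beside 8.57%) and 1 lower (beside 14.7%). An unadjusted limma p below 0.05 was found for 3 of 10, Bnip3l being the third, beside 36.8% of all genes, and the groups of 4 did not overlap (Becn1 and Gabarapl1 higher, Ulk1 and Bnip3l lower), beside 38.3%. The median change was -0.015, against -0.10 over all genes. For KI TAC against WT TAC 1 of 10 passed, beside 11%, and it was higher, beside 2.92% (328 genes, against 643 with median-ratio scaling and 523 with quantile normalization). Unadjusted, 3 of 10 were below 0.05 by limma (Gabarapl1, Ulk1 and Becn1), beside 30.3%, and 4 did not overlap (Becn1, Gabarapl1 and Sqstm1 higher, Ulk1 lower), beside 29.5%. The median was 0.21, against -0.12 over all genes. With 3 mice a group an exact permutation test cannot give a two-sided p below 0.1, which is the value every member without overlap had.

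**Figure D2:**
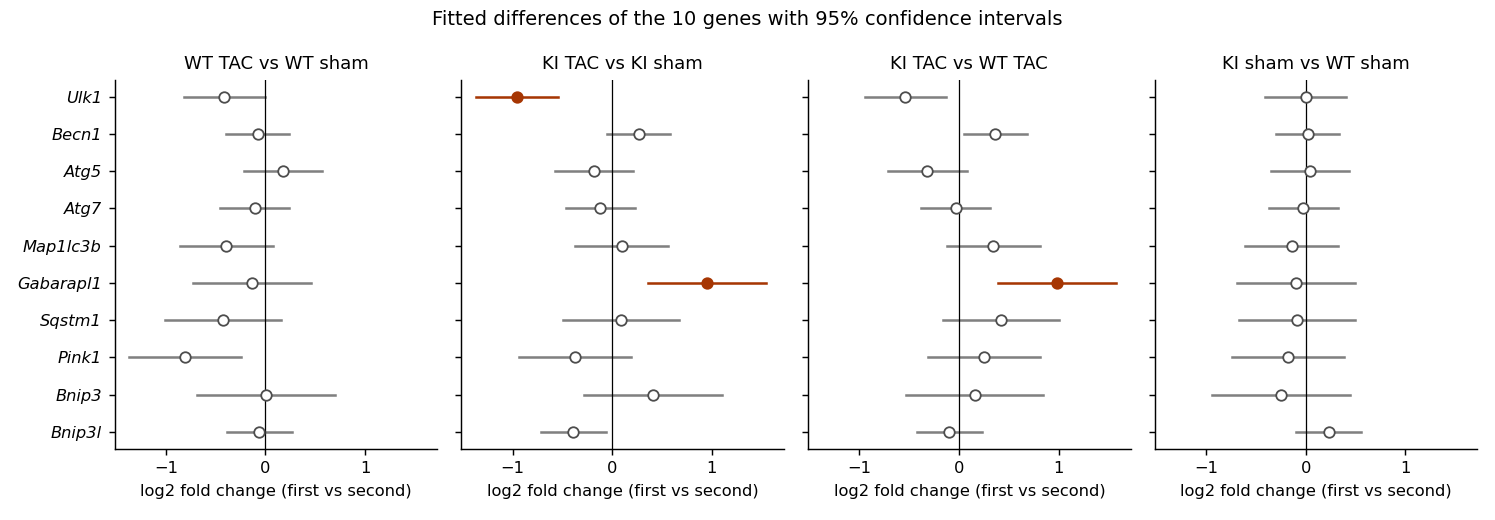
Fitted log2 fold change of log2(RPKM + 1), first group against second, with 95% confidence intervals, for the 10 genes in 4 comparisons of 3 mice against 3; filled points passed the limma threshold. Ulk1 (-0.96) and Gabarapl1 (0.95) were past it in KI TAC against KI sham and Gabarapl1 (0.98) in KI TAC against WT TAC, and every interval of the sham comparison spans 0.

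Between the genotypes in sham hearts 0 of the 10 genes passed by limma, with 0 of 10 at an unadjusted p below 0.05 (beside 0.329% of all genes) and 0 by limma-voom, beside 0.0178% of all genes past the threshold (2 of 11240). The fitted differences of KI against WT ran from -0.25 (Bnip3) to 0.23 (Bnip3l), and their 95% intervals were widest for Bnip3 (-0.93 to 0.44) and ran from -0.29 to 0.34 for Becn1. Bnip3 was the 1 gene without overlap, beside 3.27% of all genes. For the interaction 0 of 10 and 0 of 11240 genes (0%) passed, while 1 of the 10, Gabarapl1, and 14.8% of all genes had an unadjusted p below 0.05. By limma-voom 0 of 10 passed.

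Markers of other cells moved with surgery, and their part in the results was not tested. Summed over 6 macrophage genes, levels were 82.9 to 135 RPKM in WT sham and 149 to 226 in WT TAC hearts without overlap, and 90.1 to 111 in KI sham and 102 to 134 in KI TAC hearts. Lyz2 made up most of these sums. Within the list, Adgre1, Cd68 and Lyz2 rose after TAC in WT hearts, where 5 of 6 were positive and Cd163 was at -0.22. In KI hearts the 6 genes did not move one way, with a median of 0.26 and 4 of 6 positive. There Csf1r fell (-0.53, limma adjusted p = 0.0419), Adgre1 was lower without overlap (-0.50, 0.153), and Cd68 (0.65, 0.0647) and C1qa (0.44, 0.226) were higher without overlap. Against WT TAC, 2 of the 6 passed lower in KI TAC hearts (Adgre1 -1.15, limma adjusted p = 0.0135, and Csf1r -0.91, 0.00913). The median there was -0.69, and 2 of the 6 were positive, Cd163 (0.75, limma adjusted p = 0.110) and C1qa (0.076, 0.865), both with overlap. The 3 of 5 neutrophil genes with values summed to 0.508 to 1.27 RPKM in WT sham, 3.69 to 9.87 in WT TAC, 0.395 to 0.505 in KI sham and 4.18 to 20.3 in KI TAC hearts. Fibroblast sums (6 genes) were 113 to 171 RPKM in WT sham, 134 to 610 in WT TAC, 135 to 221 in KI sham and 92.2 to 168 in KI TAC hearts. Col1a1 had the largest mean of the 6 in each group. In WT hearts 6 of 6 were positive (median 0.52, 0 passed), with Dcn at 0.0048 and Tcf21 at 0.083. In KI hearts 1 of 6 was positive, and Lum fell (-1.14, limma adjusted p = 0.0476). Between the TAC groups 0 of 6 were positive (median -0.71, 0 passed). Erythroid sums (5 genes) were 145 to 171, 74.8 to 114, 134 to 244 and 97.7 to 257 RPKM in the same order, and those of 5 smooth muscle and pericyte genes 127 to 136, 159 to 168, 104 to 163 and 123 to 150 RPKM. Cardiomyocyte sums of the groups overlapped, but Actc1 made up most of them, and other cardiomyocyte genes moved. After TAC in WT hearts Myh6 fell (-1.15 on the log2 scale, limma adjusted p = 0.0129), Tnni3 (-0.84, 0.0579) and Myl2 (-0.76, 0.0670) were lower without overlap, and the median of the 7 genes was -0.50. Of the 7, 1 was positive, Actc1 (0.42, limma adjusted p = 0.359), and Ryr2 was at -0.087 (0.877), both with overlap. In KI hearts Pln fell (-0.93, limma adjusted p = 0.0281) and the median was 0.053. KI TAC hearts were above WT TAC hearts in Tnni3 (0.95, limma adjusted p = 0.0384) and Myl2 (0.86, 0.0447), with a median of 0.65 over the 7, of which 4 were positive and Actc1 (-0.24), Ryr2 (-0.20) and Pln (-0.28) negative, all 3 with overlap. Overlap between groups was also seen in the sums of 5 endothelial genes (225 to 322 RPKM over all mice) and in the 1 of 4 adipocyte genes with values, and 0 of 4 skeletal muscle genes had values. Of the endothelial genes 0 of 5 passed by limma, while Pecam1 was higher without overlap in KI TAC than in KI sham (0.50, limma adjusted p = 0.0502) and in WT TAC hearts (0.33, 0.206).

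The wider pathway was read from 8 lists with 86 genes beyond the 10, of which 84 were tested. They hold the initiation complex (11 tested), the Beclin 1 complex (9), ATG8 proteins and their conjugation (10), cargo receptors (6), mitophagy (12), lysosome and fusion (20), mTORC1 and AMPK (13) and Bcl-2 proteins that bind Beclin 1 (3). After TAC in WT hearts 3 of the 84 passed the limma threshold, 1 higher and 2 lower (3.57%, beside 11.6% of all genes), and in KI hearts 14, of which 3 were higher and 11 lower (16.7%, beside 23.3%). For KI TAC against WT TAC 8 passed, 2 higher and 6 lower (9.52%, beside 11%), and in sham hearts and for the interaction 0 passed. The median change was -0.13 in WT hearts and -0.11 in KI hearts, against 0.035 and -0.10 over all genes.

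**Figure D3:**
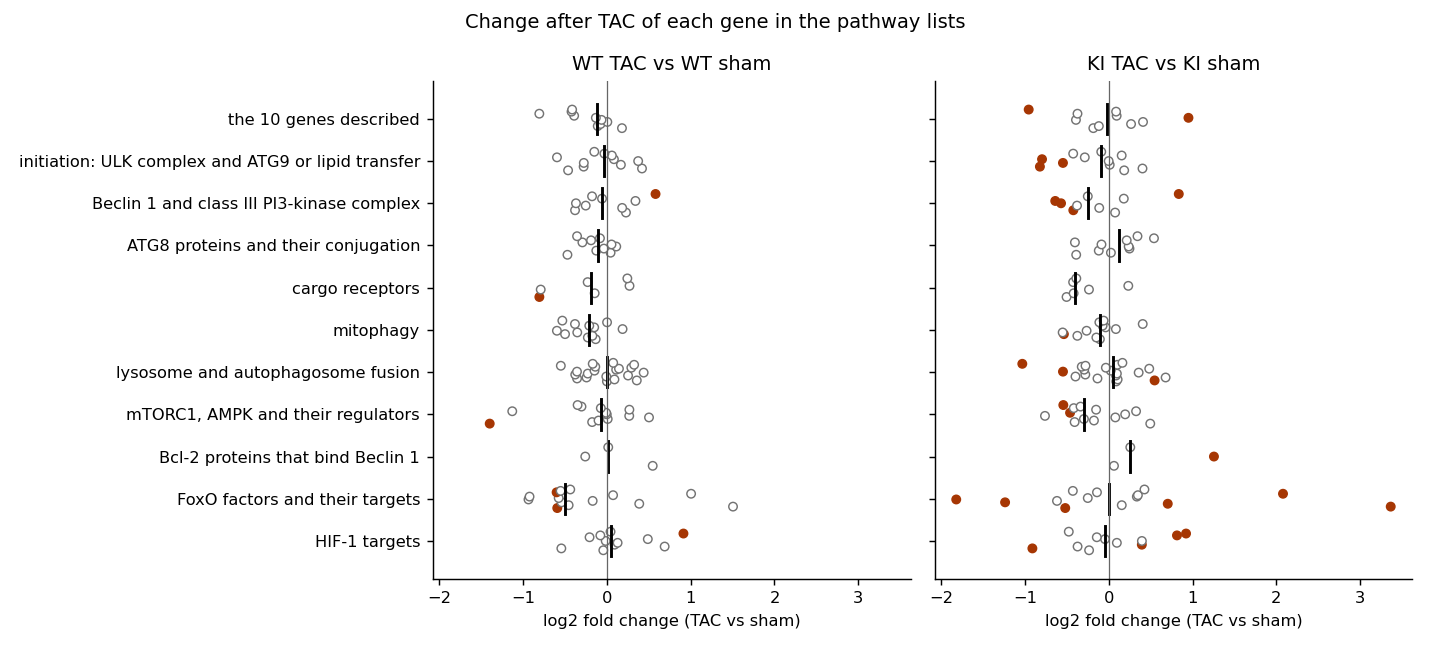
Change after TAC on the log2 scale of every tested gene (1 point each) by list, in WT (left) and KI (right) hearts, with a bar at the list's median; filled points passed the limma threshold. In the 8 core lists 3 points are filled in WT hearts and 14 in KI hearts, 11 of the latter to the left of 0.

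Of the 11 initiation genes, 3 fell in KI hearts after TAC, beside 14.7% of all genes, and 0 passed in WT hearts or for the interaction. They were Atg2a, which moves lipid into the growing membrane (-0.82, limma adjusted p = 0.00227), Ulk2, the kinase most like Ulk1 (-0.80, 0.0111), and Atg9a, the membrane protein of the seed vesicles (-0.55, 0.0274). In WT hearts Atg9a (-0.28, limma adjusted p = 0.289) and Atg2a (-0.28, 0.258) were also lower after TAC without overlap, and Ulk2 (0.083, 0.820) overlapped. Atg2a measured 22.8, 24.3 and 27.1 RPKM in WT sham, 20.3, 21.1 and 19.1 in WT TAC, 23.9, 21.9 and 26.4 in KI sham, and 12.8, 12.3 and 14.4 in KI TAC hearts, with the KI TAC hearts below all others. Ulk2 was at 18.8, 15.7 and 16.4 RPKM in KI TAC hearts against 22.5 to 36.2 in the 9 others. Both also differed in this direction between the TAC groups (Atg2a -0.58, limma adjusted p = 0.0310, and Ulk2 -0.78, 0.0268).

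In the Beclin 1 complex, Vmp1, a membrane protein needed for the autophagosome to form, rose after TAC in both genotypes (0.58 in WT, limma adjusted p = 0.0490, and 0.84 in KI hearts, 0.00450). Rubcn, whose product Rubicon restrains the complex (-0.64, limma adjusted p = 0.0184), and the kinase subunit gene Pik3r4 (-0.57, 0.0445) fell in KI hearts, as did 1 further member. Rubcn measured 25.3, 19.9 and 23.2 RPKM in WT TAC and 11.6, 8.79 and 10.7 in KI TAC hearts (-1.07, limma adjusted p = 0.00549), and 13.9 to 19.5 in sham hearts of both genotypes. Of the 10 further ATG8 and conjugation genes tested, Gabarapl1 and the other members apart, 0 passed in any comparison by limma (beside 11.6% of all genes in WT hearts, 23.3% in KI hearts and 11% between the TAC groups). Among them are the ATG8 paralogs Map1lc3a (122 to 236 RPKM over the 12 mice), Gabarap (30.02 to 54.3) and Gabarapl2 (4.94 to 9.87). Gabarapl2 was above KI sham (0.54, limma adjusted p = 0.0568) and above WT TAC (0.60, 0.0586) in KI TAC hearts without overlap, and Map1lc3a above WT TAC without overlap (0.67, 0.0738), short of the threshold.

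Of the cargo receptors, Calcoco1 fell in WT hearts (-0.81, limma adjusted p = 0.0307). In KI hearts it did not pass, at 19.2, 27.1 and 22.4 RPKM after TAC against 23.7, 38.8 and 37.5 after sham, with overlap. The median of the 6 cargo receptors was -0.40 in KI and -0.19 in WT hearts. Of the mitophagy genes Mfn2, the fusion protein of the outer mitochondrial membrane, fell in KI hearts (-0.54, limma adjusted p = 0.0475). In WT hearts Mfn2 was lower without overlap by a like amount that missed the threshold (-0.50, limma adjusted p = 0.0912), and its interaction was -0.036 (0.958). Of the lysosome genes in KI hearts, Tfeb, a master regulator of lysosome genes, fell from a mean of 23.9 to 11.9 RPKM (-1.03, limma adjusted p = 0.0109), the calcium channel gene Mcoln1 fell (-0.55, 0.0308) and the proton pump gene Atp6v1h rose (0.55, 0.00766). KI TAC mouse 7 had 18.7 RPKM of Tfeb against 9.09 and 7.87 in mice 5 and 6.

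Of the mTORC1 and AMPK genes, Ddit4, which encodes an inhibitor of mTORC1, fell in WT hearts (-1.40, limma adjusted p = 0.0497) and after TAC stood higher in KI than in WT hearts (1.94, 0.0169), at 108, 113 and 143 against 17.1, 69.0 and 24.2 RPKM. Tsc2 (-0.54, limma adjusted p = 0.0262) and Rptor (-0.46, 0.0454), which act on opposite sides of mTORC1, both fell in KI hearts, and Rptor (-0.57, 0.0341) and the AMPK subunit gene Prkaa2 (-1.05, 0.0488) were below their WT levels in the KI hearts given TAC. Tsc2 did not pass in WT hearts but was also lower after TAC without overlap (38.9, 40.1 and 35.6 against 46.6, 46.6 and 54.0 RPKM). Bcl2l1, the gene that carries the knock-in, measured 7.04, 14.2 and 15.4 RPKM in WT sham, 7.50, 17.2 and 6.59 in WT TAC, 6.67, 19.1 and 16.0 in KI sham, and 35.8, 37.0 and 24.5 in KI TAC hearts. KI TAC hearts exceeded KI sham (1.26, limma adjusted p = 0.0354) and WT TAC hearts (1.64, 0.0231), and their level of Bcl2 was below that of WT TAC hearts (-0.68, 0.0376). A gene level does not show a single altered codon, so these values are no check of the genotype labels.

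**Figure D4:**
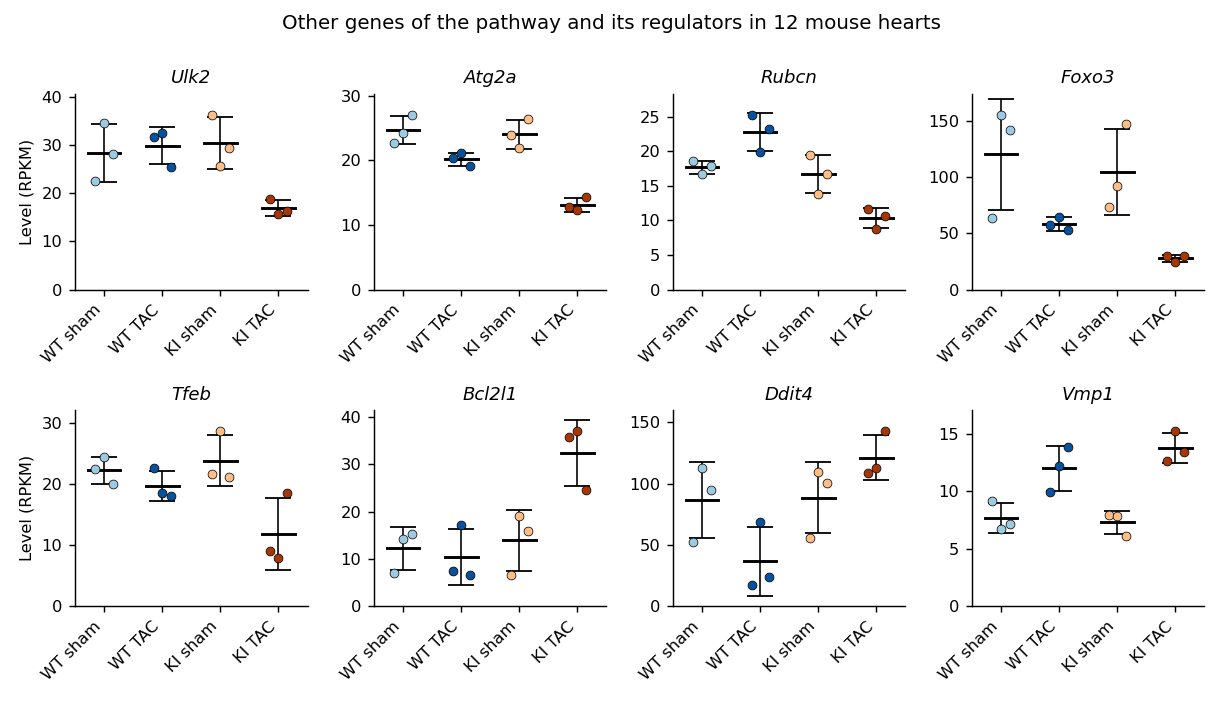
Level in RPKM on linear axes starting at 0 of 8 further genes of the pathway and its regulators, with 1 point per mouse, a line at the group mean and bars of 1 SD (n = 3 mice per group). Ulk2, Atg2a, Rubcn and Foxo3 lie lowest in the 3 KI TAC hearts and Bcl2l1 highest in them.

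The named calls of these lists kept their direction when any 1 mouse was left out, and many lost the threshold, also without mice of groups not compared. Named values that had not passed were not followed in this way. Of the 13 named calls after TAC in KI hearts, those of Atg2a, Ulk2, Vmp1 and Atp6v1h held without any 1 mouse (limma adjusted p up to 0.0498). The number lost was 9 without KI TAC mouse 6, 8 without KI sham mouse 3, 7 without KI TAC mouse 5, 6 without KI sham mouse 1, 3 each without KI sham mouse 2, WT sham mouse 2, WT sham mouse 3 or WT TAC mouse 7, 2 each without WT TAC mouse 9 or KI TAC mouse 7, and 1 without WT sham mouse 1 (limma adjusted p up to 0.180). Mfn2, lost without 10 of the 12 mice, stayed between -0.59 and -0.43 on the log2 scale, and Rptor, also lost without 10, between -0.58 and -0.38. Tfeb was lost without KI TAC mouse 6 alone (limma adjusted p = 0.0521). Of the 8 calls between the TAC groups, that of Rubcn held without any 1 mouse (limma adjusted p up to 0.0417), 7 were lost without WT TAC mouse 7 or KI TAC mouse 6, 5 without KI TAC mouse 5, 4 without WT sham mouse 2, 3 each without WT TAC mouse 9, WT TAC mouse 10 or KI sham mouse 3, 2 without WT sham mouse 3 and 1 without KI TAC mouse 7 (up to 0.151). The 3 calls in WT hearts were all lost without any of WT sham mice 2 and 3 and WT TAC mice 7 and 10 (limma adjusted p up to 0.209). Over all 19 alternatives the WT call was lost in 15 for Ddit4, 14 for Vmp1 and 5 for Calcoco1.

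FoxO factors and HIF-1 drive several autophagy genes, so their lists were read beside the 10. Of 14 FoxO factors and targets, 2 passed lower in WT hearts (beside 11.6% of all genes in either direction), 3 higher and 3 lower in KI hearts (beside 8.57% and 14.7%), and 3 higher and 1 lower for KI TAC against WT TAC (beside 11% in either direction). Foxo3 measured 63.6, 155 and 142 RPKM in WT sham, 57.3, 64.4 and 52.9 in WT TAC, 73.6, 92.3 and 147 in KI sham, and 29.5, 24.1 and 29.7 in KI TAC hearts, with the KI TAC hearts lowest (-1.82 against KI sham, limma adjusted p = 0.00133). Cdkn1a (3.37, limma adjusted p = 0.00104) and Pdk4 (2.08, 0.0315) were the 2 FoxO targets with the largest rise in KI hearts, and Sod2 (-0.60, 0.0342) and Ccng2 (-0.59, 0.0179) fell in WT hearts. Ccng2 also passed the threshold in KI hearts, and its value there is left out of the text. The calls of Foxo3 and Cdkn1a in KI hearts held without any 1 mouse (limma adjusted p up to 0.00958), and that of Pdk4 was lost if KI TAC mouse 5 or 6, or KI sham mouse 2 or 3, was left out (up to 0.120). The WT calls of Sod2 and Ccng2 were both lost without WT sham mouse 1 or 3 or WT TAC mouse 7, and that of Sod2 also without WT sham mouse 2, WT TAC mouse 9 or KI sham mouse 3 (limma adjusted p up to 0.133). Between the TAC groups the 3 higher calls (Cdkn1a, Gadd45a and Pdk4) were all lost without WT TAC mouse 7, KI TAC mouse 5 or KI TAC mouse 6 (limma adjusted p up to 0.136). WT TAC mouse 9 had 344 RPKM of Pdk4 and 67.4 of Cdkn1a against at most 65.8 and 17.6 in the other WT TAC mice, the same mouse in which Bnip3 stood alone. Of 11 HIF-1 targets, 1 rose in WT hearts (beside 11.6% of all genes in either direction), 3 rose and 1 fell in KI hearts (beside 8.57% and 14.7%), and 1, Egln3, passed lower for KI TAC against WT TAC (beside 11% in either direction), which was lost when mouse 7 or 9 of WT TAC, or mouse 5 or 6 of KI TAC, was left out (limma adjusted p up to 0.107). Slc2a1, the glucose transporter GLUT1, rose by 0.91 on the log2 scale in WT (limma adjusted p = 0.0415) and by 0.92 in KI hearts (0.0240), and the KI call was lost without KI TAC mouse 5 or 6, or KI sham mouse 1 (up to 0.0975). The WT call was lost without any of the 3 WT sham mice, WT TAC mouse 7 or 9, KI sham mouse 3 or KI TAC mouse 6 (limma adjusted p up to 0.149).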

How the data were processed

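Poly(A) RNA of each heart was made into a strand-specific library and sequenced as single reads of 75 bases. Per the submitters' processing notes, Trimmomatic 0.39, HISAT2 2.2.1, HTSeq 0.6.1, edgeR 3.18.1, limma 3.32.10 and R 4.1.1 were used with the build GRCm38. The authors deposited 1 value per gene and mouse with no unit stated, read here as RPKM, since the values times GENCODE M21 exon length in kb summed to 997702 to 1002227 in every mouse. How counts became these values, the gene filter and the strand setting are not given in the sources used here. The same products, scaled to depth, gave whole reads within 0.1 for 96.6% to 98.6% of low values in each mouse, from which depth was recovered. Of 13552 identifiers 13546 were in M21.

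Genes were tested if 3 or more mice reached 1 RPKM. A linear model of log2(RPKM + 1) with 4 group means was fitted over the 12 mice with limma 3.58.1 under R 4.3.3, using moderated variances with a trend, with Benjamini-Hochberg adjustment over all 11240 genes. A fold change on this scale understates the change of low genes. Samples were grouped by their genotype and treatment labels, and mice carry the numbers of their labels. A test on counts had been planned for a count table. Alternatives were a pseudocount of 0.1, no filter, quantile normalization, median-ratio scaling, limma-voom on recovered reads, no trend, fits of 2 groups, and each mouse left out. The code was tested on simulated data. The 10 genes and all lists were chosen with earlier results of these data known. Of other lists at most 3 genes past the threshold were named per list and comparison, by size of change; the GC box was chosen after the promoter sequences were seen. Profile likeness was the root mean square difference of centred log2 levels over genes tested. Values of some genes on the lists are left out of the text.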

Additional observations from a re-analysis of the deposited data

How the results depend on the processing

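Over the 10 genes, 331 of 350 values kept their direction and their side of the limma threshold under alternatives other than leaving out a mouse, and 553 of 600 did when 1 mouse was left out. Of the named calls of other pathway, FoxO and HIF-1 genes 208 of 259 and 291 of 444 did, and the rest kept their direction but lost the threshold. Marker genes were not followed under the alternatives. The median of all genes was -0.10 for KI TAC against KI sham, -0.12 for KI TAC against WT TAC and -0.13 for the interaction as deposited, and between -0.020 and 0.0030 after quantile or median-ratio scaling. The share of calls that were higher then went from 36.8% to 48.3% and 51.5% in KI hearts and from 26.4% to 46.0% and 51.6% between the TAC groups (60.2%, 48.1% and 51.1% in WT hearts). The changes of Ulk1 and Gabarapl1 in KI hearts stayed between -0.98 and -0.82 and between 0.94 and 1.09 under both scalings and limma-voom on recovered reads.

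After TAC in WT hearts, 1 gene of the 10 passed with quantile normalization and 1 without a trend. For KI TAC against WT TAC, 2 passed with quantile normalization and 2 with median-ratio scaling, and a fit of these 2 groups alone called 0 of the 10 and 216 genes in all against 1242. In sham hearts that kind of fit called 5 genes in all and the replicate block 0, and the block called 0 of the 10. Same-numbered sham mice did not deviate together (Pearson's r across genes of -0.22, -0.30 and 0.44 for mice 1, 2 and 3), so the numbers are not read as pairs. TAC mice shared no 2 numbers with another group, so no block could be fitted there.

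With 1 mouse left out, members past the threshold ranged over 0 to 1 (WT TAC against sham), 1 to 2 (KI TAC against sham), 0 to 2 (KI TAC against WT TAC), and 0 to 0 for the sham comparison and the interaction. Genes in all ranged over 582 to 1505, 1448 to 2967, 154 to 1812, 2 to 4 and 0 to 232 in the same order; the TAC groups gave 154 without WT TAC mouse 7 and 182 without KI TAC mouse 6, and the interaction 232 without WT TAC mouse 9 and 183 if KI TAC mouse 7 was left out.

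Signs turned for values that had not passed the threshold, the largest of them 0.25 (Pink1, KI TAC against WT TAC), -0.18 (Pink1, sham hearts) and 0.16 (Bnip3, KI TAC against WT TAC). In WT hearts Bnip3 was -0.00014 at a pseudocount of 0.1, -0.023 with quantile normalization and -0.024 with median-ratio scaling, and in KI hearts Sqstm1 was -0.0041 with quantile normalization. Between the TAC groups quantile normalization gave Bnip3l 0.016, Pink1 -0.018 and Atg7 0.12, and median-ratio scaling Bnip3l 0.041 and Atg7 0.086. The interaction of Atg7 was 0.17 and 0.12 under these scalings, and Ulk1 in sham hearts was -0.0086 with median-ratio scaling and -0.00019 with limma-voom. With 1 mouse left out, in WT hearts Bnip3 ranged from -0.48 to 0.28 and Bnip3l from -0.13 to 0.021. In KI hearts Atg7 ranged from -0.25 to 0.023, Map1lc3b from -0.057 to 0.27 and Sqstm1 from -0.23 to 0.30. Between the TAC groups Atg7 ranged from -0.16 to 0.11 and Bnip3 from -0.12 to 0.64, and the interaction of Atg7 from -0.14 to 0.13. In sham hearts the ranges were -0.022 to 0.099 (Becn1), -0.081 to 0.17 (Atg5), -0.074 to 0.057 (Atg7), -0.29 to 0.022 (Map1lc3b), -0.24 to 0.15 (Gabarapl1), -0.30 to 0.23 (Sqstm1), -0.14 to 0.12 (Ulk1) and -0.34 to 0.075 (Pink1). The cause of these changes was not tested. The 10 genes had at least 170 reads in every mouse, and 3 mice a group limit the precision.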
